A study of Mus musculus with 18 samples.

Results

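The genes described here are 10 members of the NRF2 antioxidant pathway, followed through liver regeneration in the mouse: Nfe2l2, which encodes the transcription factor NRF2, its inhibitor Keap1, and the target genes Hmox1, Osgin1, Gclc, Gclm, Txnrd1, Srxn1, Gsr and Nqo1. They were taken by symbol and are 10 of the 17180 genes listed in any table. Liver RNA of C57BL/6 mice was sequenced, with livers taken 0.5, 2, 4, 24, 48, 72, 120 or 168 h after 2/3 partial hepatectomy, surgery in which most of the liver is taken out and the rest regrows, and after sham surgery, for which the labels name no loss of tissue. Each of the 9 groups had 2 libraries, each made from the combined RNA of 3 mice, which gives n = 2 pools a group and 54 mice in all. The labels give no further treatment and no genetic change in any group. They give neither the sex of the mice nor the time after surgery at which sham livers were taken, so that an effect of time after surgery or of time of day cannot be told apart from one of hepatectomy.

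NRF2 is held in the cytoplasm by KEAP1, which serves as the adaptor of a CUL3 ubiquitin ligase and marks NRF2 for degradation. Oxidants and electrophiles modify cysteines of KEAP1, NRF2 then accumulates, pairs with a small MAF protein in the nucleus and binds antioxidant response elements, while BACH1 competes for these elements as a repressor. The targets make glutathione, regenerate reduced thioredoxin and glutathione, reduce quinones and break down haem. Much of this control acts on the NRF2 protein, which RNA counts do not measure.

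The sequence that NRF2 and a small MAF protein recognise has the core TGACNNNGC, which was searched on both strands in RefSeq promoters of GRCm38.p6, from 250 bases before to 50 bases after a transcription start. The core was found in promoters of 4 of the 7 members with an entry, Nfe2l2, Gclm, Srxn1 and Txnrd1, which is 57.1%, against 14.0% of all 27025 genes with an entry. It was not found in these windows of Keap1, Nqo1 and Osgin1. Gclc, Hmox1 and Gsr were not analysed here. All 4 matches are shown, from genes that did not all follow the same course after hepatectomy. Each is printed 5′ to 3′ on the strand that carries the core, with the core in capitals.
Nfe2l2, chr2:75704885-75704913, minus strand: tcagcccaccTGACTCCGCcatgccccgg
Gclm, chr3:122245413-122245441, minus strand: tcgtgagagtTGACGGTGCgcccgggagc
Srxn1, chr2:152105542-152105570, minus strand: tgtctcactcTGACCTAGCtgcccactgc
Txnrd1, chr10:82859104-82859132, minus strand: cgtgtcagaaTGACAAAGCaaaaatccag
With the start base counted as 0 in the direction of each gene, the cores begin at -240 in Nfe2l2, -134 in Gclm, -92 in Txnrd1 and 28 in Srxn1. The Txnrd1 match lies in 1 of the 3 promoters listed for that gene. For 7 of the 9 promoters listed for members, bases after the start were found in a transcript of the gene. A match is a description of the letters and not a measured binding site.

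Read totals per library ran from 7.78 to 9.16 M (mega) reads. Of the 18 tables, 16 listed counts that add up to their totals. For sham replicate 2 the list stopped at 8026 genes and a count of 52, for 0.5 h replicate 1 at 4908 genes and a count of 157, so that an unlisted gene is unknown there up to 6.55 CPM and 19.0 CPM. All 10 members were listed for sham replicate 2. Nqo1 alone was unlisted for 0.5 h replicate 1. Changes were therefore tested in 17 libraries over the 8026 genes listed for sham replicate 2, with 0.5 h replicate 1 left out, and the 0.5 h group enters with 1 pool that is assumed to vary like the others. Genes scarce in sham livers are not among these 8026, so that shares of called genes given below are not those of all genes. A gene passed, or was called, at a Benjamini-Hochberg adjusted p under 0.05 in edgeR's quasi-likelihood test of all groups in 1 fit. Levels are counts scaled to library size (CPM) after TMM scaling, changes are log2 fold changes ± SE, and each p-value is set against the differences between such pools. All 8 hepatocyte markers of the list used, Alb and Ttr among them, were detected in every library.

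Nfe2l2 changed late. Its RNA was higher than in sham livers at 48 and 72 h and showed no call before. The gene (ID 18024) lies at chr2:75675513-75704641 on the minus strand of GRCm38. Its levels were 61.8 and 50.4 CPM in sham livers, 39.2 and 48.7 CPM at 0.5 h, 49.7 and 47.0 CPM at 2 h, and 77.4 and 47.8 CPM at 4 h. From 24 h they were 79.9 and 99.9 CPM, then 96.3 and 82.5 CPM at 48 h, 87.8 and 119 CPM at 72 h, 72.5 and 60.04 CPM at 120 h, and 82.2 and 73.0 CPM at 168 h. Both pools at 24, 48, 72 and 168 h lay above both sham pools, whereas the 4 h and 120 h pools overlapped them. The log2 change was 0.67 ± 0.22 at 48 h (adjusted p = 0.0327) and 0.89 ± 0.22 at 72 h (adjusted p = 0.024), while that at 24 h, 0.68 ± 0.22, did not pass (adjusted p = 0.0599). The 24 h change passed in DESeq2 (adjusted p = 0.0219). The call at 48 h was lost without sham replicate 1 (adjusted p = 0.0698), sham replicate 2 (0.183), 48 h replicate 1 (0.138) or 48 h replicate 2 (0.0662). That at 72 h was lost without sham replicate 1 (adjusted p = 0.078), sham replicate 2 (0.167) or 72 h replicate 2 (0.213).

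Keap1 was lowest at 4 h. The gene (ID 50868), at chr9:21229730-21239361 on the minus strand, fell at 4 h and lay above both sham pools from 48 h on. It had 44.8 and 49.0 CPM in sham livers, 45.4 and 42.5 CPM at 0.5 h, 33.7 and 38.0 CPM at 2 h, and 28.8 and 32.4 CPM at 4 h. Later pools had 43.0 and 44.4 CPM at 24 h, 55.5 and 63.0 CPM at 48 h, 60.7 and 51.0 CPM at 72 h, 51.1 and 57.0 CPM at 120 h, and 55.7 and 60.8 CPM at 168 h. The 4 h pools were the lowest of the series, the 24 h pools were still below both sham pools, and all 8 pools from 48 h on were above them. The change at 4 h was -0.61 ± 0.14 (adjusted p = 0.00401) and held whichever library was left out, but missed the threshold in the 16 complete libraries (adjusted p = 0.052). At 48 h it was 0.34 ± 0.13, which did not pass (adjusted p = 0.0642). At 24 h Keap1 was higher than at 4 h by 0.51 ± 0.14 (adjusted p = 0.0122), a call lost without 4 h replicate 1 (adjusted p = 0.0808), without 24 h replicate 2 (0.0518) and with only these 2 groups in the fit (0.0853). An exon of Keap1 overlaps the antisense gene Gm16754. Reads of the pair cannot be told apart, as no source used here states whether counting used the strand.

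On the deposited RPKM scale, which divides by gene length, the ratio of Nfe2l2 to Keap1 was 4.86 and 2.67 at 4 h, against 2.50 and 1.86 in sham livers. It was 3.37 and 4.07 at 24 h, 3.15 and 2.37 at 48 h, 2.62 and 4.24 at 72 h, and 2.57 and 1.91 at 120 h. Both pools at 4, 24 and 72 h exceeded both sham pools in this ratio, those at 48 and 120 h overlapped them, and the 4 h pools differed from each other by more than the sham pools did. These ratios are given without a test.

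Hmox1, which encodes the inducible haem oxygenase that splits haem into biliverdin, iron and carbon monoxide, rose most of the 10 genes. The gene (ID 15368) lies at chr8:75093621-75100589 on the plus strand. Levels were 31.3 and 22.3 CPM in sham livers, 44.3 and 43.1 CPM at 0.5 h, 127 and 224 CPM at 2 h, and 322 and 157 CPM at 4 h. They were 24.1 and 62.9 CPM at 24 h, 50.8 and 67.0 CPM at 48 h, 34.8 and 54.7 CPM at 72 h, 49.5 and 59.2 CPM at 120 h, and 49.0 and 65.6 CPM at 168 h. The 2 h and 4 h pools stood above every other pool of the series, although the pools at each of these times differed widely. From 48 h on both pools at each time lay above both sham pools, by far less. The log2 change was 2.71 ± 0.46 at 2 h (adjusted p = 0.00283) and 3.16 ± 0.46 at 4 h (adjusted p = 0.000253), and it was 1.13 ± 0.45 at 48 h, which did not pass (adjusted p = 0.0683). At 24 h Hmox1 was lower than at 4 h by a log2 change of -2.46 ± 0.44 (adjusted p = 0.00123). The calls at 2 h, at 4 h and between 24 and 4 h held under all alternatives and whichever library was left out.

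Hmox1 is abundant in liver macrophages, so the markers of these cells are given beside it. The summed level of 12 Kupffer cell and macrophage markers was 912 to 1119 CPM at 4 h, against 705 to 716 CPM in sham livers. At 4 h 3 of the 12 passed as higher, Marco, C1qb and Cd163, beside 31.6% of all 8026 genes called and 15.3% higher. At 2 h the sum of the 12 markers was 630 to 712 CPM and none of the 12 passed, beside 7.75% of all genes called. At 24 h the sum was 703 to 1393 CPM with 2 of the 12 higher (Marco, Cd5l), beside 11.7% of all genes called and 5.05% higher. At 168 h the sum was 1473 to 1805 CPM with 8 of the 12 higher, beside 3.85% of all genes called and 1.71% higher. None of the 12 was at 0 in any library. The 10 neutrophil and monocyte markers, 9 of them unlisted for sham replicate 2, were summed in the complete tables. Their sum was 129 to 223 CPM at 4 h and 97.0 to 125 CPM at 2 h, against 79.3 CPM in sham replicate 1. At 24 h it was 43.7 to 197 CPM. Of these 10, Cxcr2 passed as higher at 4 h in the 16 libraries (15.5% of 12199 genes called), and Mpo was at 0 in 1 or more pools at 2, 24, 72, 120 and 168 h. In bulk liver more cells of a type and more RNA per cell cannot be told apart. The part of these cells in the Hmox1 changes at 2, 4 and 24 h was not tested.

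Osgin1, an oxidative stress-induced growth inhibitor, went down as Hmox1 went up. The gene (ID 71839) is at chr8:119434124-119446256 on the plus strand. Levels were 233 and 226 CPM in sham livers, 193 and 129 CPM at 0.5 h, 68.3 and 67.9 CPM at 2 h, and 87.1 and 30.7 CPM at 4 h. They were 119 and 173 CPM at 24 h, 237 and 243 CPM at 48 h, 325 and 329 CPM at 72 h, 196 and 281 CPM at 120 h, and 317 and 280 CPM at 168 h. All pools from 0.5 to 24 h were below both sham pools, and all pools at 48, 72 and 168 h were above them, those at 48 h only slightly. The change was -1.75 ± 0.34 at 2 h (adjusted p = 0.00675) and -1.96 ± 0.34 at 4 h (adjusted p = 0.000889). The 2 h call was lost without 2 h replicate 1 (adjusted p = 0.0511) or 2 h replicate 2 (0.0607), with nearly the same log2 change. The 24 h level was higher than that at 4 h by 1.31 ± 0.34 (adjusted p = 0.0106), a call lost without 24 h replicate 2 (adjusted p = 0.0766) and with only these 2 groups in the fit (0.114). The rise at 72 h, 0.51 ± 0.32, did not pass (adjusted p = 0.342).

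**Figure D1:**
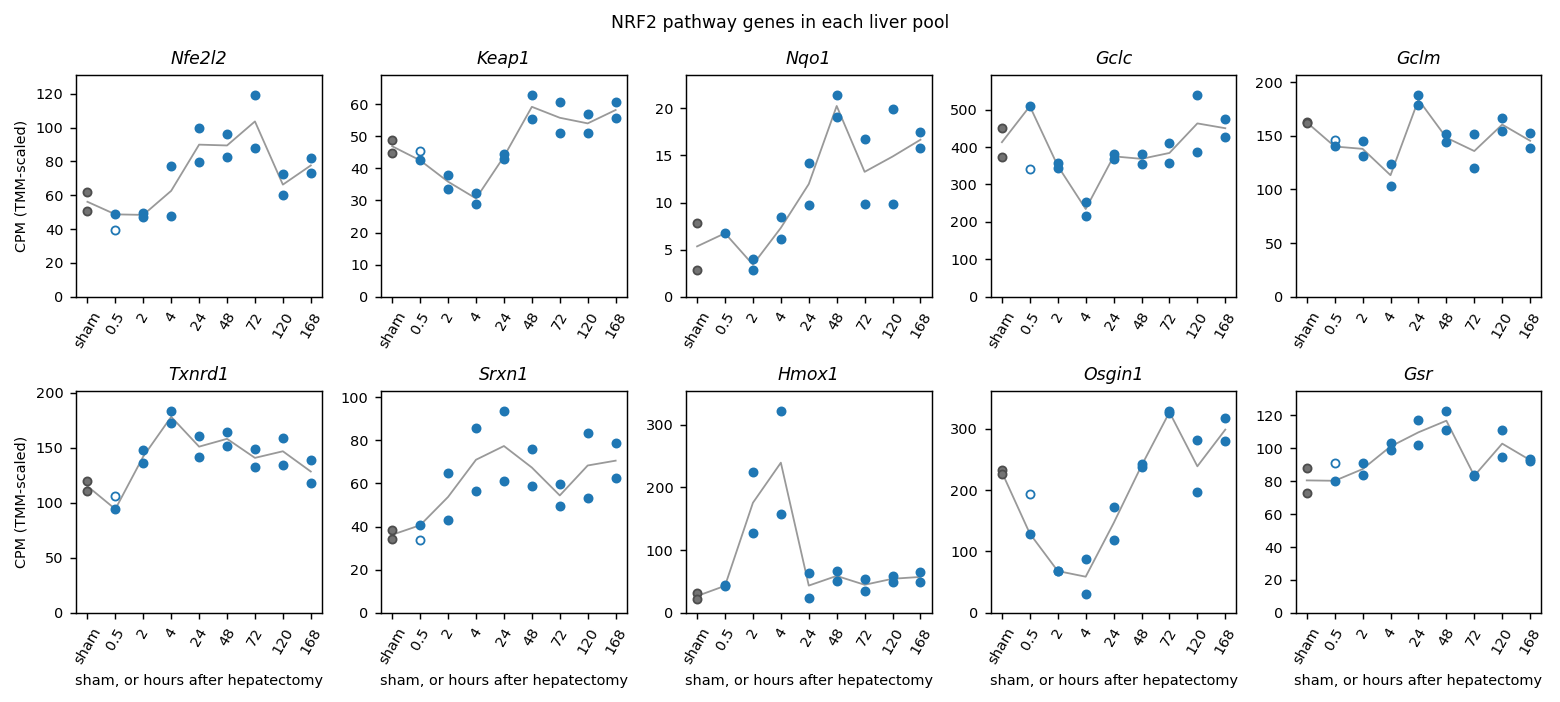
Level of each of the 10 genes (CPM after TMM scaling, linear axis from 0 in each panel) in every liver pool, by group (sham, then hours after hepatectomy, not to scale); points are pools, lines join group means of the tested pools, and the open circle is the 0.5 h pool left out of the test. Hmox1 stands at 127 to 322 CPM at 2 and 4 h, and Osgin1 at 30.7 to 87.1 CPM there.

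Gclc and Gclm encode the catalytic and the modifier subunit of glutamate-cysteine ligase, which carries out the first and limiting step of glutathione synthesis. Both fell at 4 h and were higher again at 24 h. Gclc (ID 14629; chr9:77754535-77794485, plus strand) had 452 and 374 CPM in sham livers, 342 and 509 CPM at 0.5 h, 357 and 343 CPM at 2 h, and 252 and 217 CPM at 4 h. Later levels of Gclc were 382 and 368 CPM at 24 h, 382 and 355 CPM at 48 h, 357 and 412 CPM at 72 h, 387 and 540 CPM at 120 h, and 474 and 427 CPM at 168 h. The 4 h pools of Gclc were the 2 lowest of the series, and 0.5 h replicate 2 was among the highest. Its change was -0.82 ± 0.16 at 4 h (adjusted p = 0.00221), a call that held under all alternatives and left-out libraries, and 24 h was higher than 4 h by 0.68 ± 0.16 (adjusted p = 0.00753), a call lost without 4 h replicate 2 (adjusted p = 0.0608).

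Gclm (ID 14630; chr3:122245557-122270732, plus strand) had 163 and 162 CPM in sham livers, 147 and 140 CPM at 0.5 h, 145 and 131 CPM at 2 h, and 103 and 124 CPM at 4 h. It had 179 and 188 CPM at 24 h, 152 and 145 CPM at 48 h, 152 and 120 CPM at 72 h, 155 and 166 CPM at 120 h, and 138 and 153 CPM at 168 h. The 24 h pools were the highest of the series and the only time with both pools above both sham pools. The change at 4 h was -0.52 ± 0.13 (adjusted p = 0.0103), lost without sham replicate 1 (adjusted p = 0.0531), without 4 h replicate 1 (0.101) and in the 16 complete libraries (0.0593). The rise of 24 h over 4 h was 0.70 ± 0.13 (adjusted p = 0.00194) and held under all alternatives and left-out libraries. Exons of Gclm overlap Gm17494 on the other strand and the pseudogene Gm6061 on the same strand, so that the counting could split reads among them. On the RPKM scale the ratio of Gclc to Gclm was 1.47 and 1.06 at 4 h, against 1.67 and 1.39 in sham livers, and 1.29 and 1.18 at 24 h, so that the 4 h and sham pools overlapped.

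Txnrd1 encodes the cytosolic thioredoxin reductase, which regenerates reduced thioredoxin with NADPH, and Srxn1 encodes sulfiredoxin, which repairs overoxidised peroxiredoxins. Both rose at 4 h, when the glutamate-cysteine ligase subunits fell. Txnrd1 (ID 50493; chr10:82833951-82897712, plus strand) had 120 and 111 CPM in sham livers, 106 and 94.2 CPM at 0.5 h, 136 and 148 CPM at 2 h, and 183 and 173 CPM at 4 h. It had 142 and 160 CPM at 24 h, 165 and 152 CPM at 48 h, 133 and 149 CPM at 72 h, 135 and 159 CPM at 120 h, and 139 and 118 CPM at 168 h. The 4 h pools were the highest of the series, and both pools at each time from 2 to 120 h exceeded both sham pools. The change was 0.63 ± 0.13 at 4 h (adjusted p = 0.00286) and 0.46 ± 0.13 at 48 h (adjusted p = 0.0194). The 4 h call held whichever library was left out, but was lost with scaling by library totals alone (0.26, adjusted p = 0.146) and in the 16 complete libraries (adjusted p = 0.057). The 48 h call was lost without sham replicate 1 (adjusted p = 0.0652), sham replicate 2 (0.112), 48 h replicate 1 (0.099) or 48 h replicate 2 (0.0543).

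Srxn1 (ID 76650; chr2:152105516-152111376, plus strand) had its lowest mean in sham livers and stayed above it longer. Levels were 38.3 and 34.1 CPM in sham livers, 33.6 and 40.7 CPM at 0.5 h, 64.7 and 42.9 CPM at 2 h, and 85.6 and 56.4 CPM at 4 h. They were 61.1 and 93.7 CPM at 24 h, 76.1 and 58.7 CPM at 48 h, 49.4 and 59.6 CPM at 72 h, 53.4 and 83.3 CPM at 120 h, and 78.8 and 62.4 CPM at 168 h. Both pools of every time from 2 h on lay above both sham pools, but the pools of a time differed widely. The change was 0.97 ± 0.29 at 4 h (adjusted p = 0.0218), 1.09 ± 0.29 at 24 h (adjusted p = 0.0258) and 0.90 ± 0.29 at 48 h (adjusted p = 0.0311), and 0.96 ± 0.29 at 168 h, which did not pass (adjusted p = 0.0667). Each of the 3 calls was lost without sham replicate 1 (adjusted p = 0.073 at 4 h, 0.111 at 24 h and 0.103 at 48 h) or sham replicate 2 (0.12, 0.149 and 0.139). They were also lost without 4 h replicate 1 (adjusted p = 0.194 at 4 h), 24 h replicate 2 (0.178 at 24 h), and 48 h replicate 1 or 2 (0.154 and 0.0538 at 48 h). With library totals alone the 4 h change was 0.59 and did not pass (adjusted p = 0.123). The test of any difference among the 9 groups did not call Srxn1 (adjusted p = 0.0616).

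Gsr encodes glutathione reductase, which returns oxidised glutathione to its reduced form. It rose slightly at 24 and 48 h. Gsr (ID 14782; chr8:33652523-33698163, plus strand) had 88.0 and 73.0 CPM in sham livers, 91.2 and 80.3 CPM at 0.5 h, 83.9 and 90.8 CPM at 2 h, and 98.8 and 103 CPM at 4 h. It had 102 and 117 CPM at 24 h, 111 and 123 CPM at 48 h, 82.9 and 83.7 CPM at 72 h, 94.5 and 111 CPM at 120 h, and 92.1 and 93.5 CPM at 168 h. The 72 h pools fell between the sham pools, and pools at 4, 24, 48, 120 and 168 h were above both. The change was 0.45 ± 0.13 at 24 h (adjusted p = 0.0391) and 0.54 ± 0.13 at 48 h (adjusted p = 0.00835). The 24 h call was lost in 8 of the 17 fits that left out 1 library, most clearly without sham replicate 2 (adjusted p = 0.275), 24 h replicate 2 (0.211) and sham replicate 1 (0.0605), the other 5 being 48 h replicates 1 and 2, 72 h replicate 2 and 168 h replicates 1 and 2 (0.0503 to 0.0577). It was also lost with only these 2 groups in the fit (adjusted p = 0.144). The 48 h call was lost without sham replicate 2 (adjusted p = 0.0834) or 48 h replicate 2 (0.0694).

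Nqo1, the quinone reductase often used as a marker of NRF2 activity, was the scarcest member and was highest at 48 h. The gene (ID 18104; chr8:107388225-107403206, minus strand) had 2.87 and 7.81 CPM in sham livers, 6.74 CPM in the 1 listed pool at 0.5 h, 2.82 and 3.97 CPM at 2 h, and 6.15 and 8.47 CPM at 4 h. It had 9.70 and 14.2 CPM at 24 h, 21.5 and 19.1 CPM at 48 h, 9.81 and 16.7 CPM at 72 h, 9.82 and 19.9 CPM at 120 h, and 15.8 and 17.5 CPM at 168 h. All pools from 24 h on were above both sham pools, which themselves differed more than 2-fold and rest on 23 and 62 reads. The 48 h pools rest on 222 and 193 reads. The change was 1.92 ± 0.42 at 48 h (adjusted p = 0.00541), a call lost without sham replicate 1 (1.37, adjusted p = 0.061). At the other late times the change was 1.16 ± 0.43 at 24 h (adjusted p = 0.1), 1.31 ± 0.43 at 72 h (0.075), 1.48 ± 0.43 at 120 h (0.168) and 1.64 ± 0.43 at 168 h (0.0505), and none of these passed. DESeq2 called all 4 of them (adjusted p = 0.0394, 0.0193, 0.0274 and 0.00401, in order of time).

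**Figure D2:**
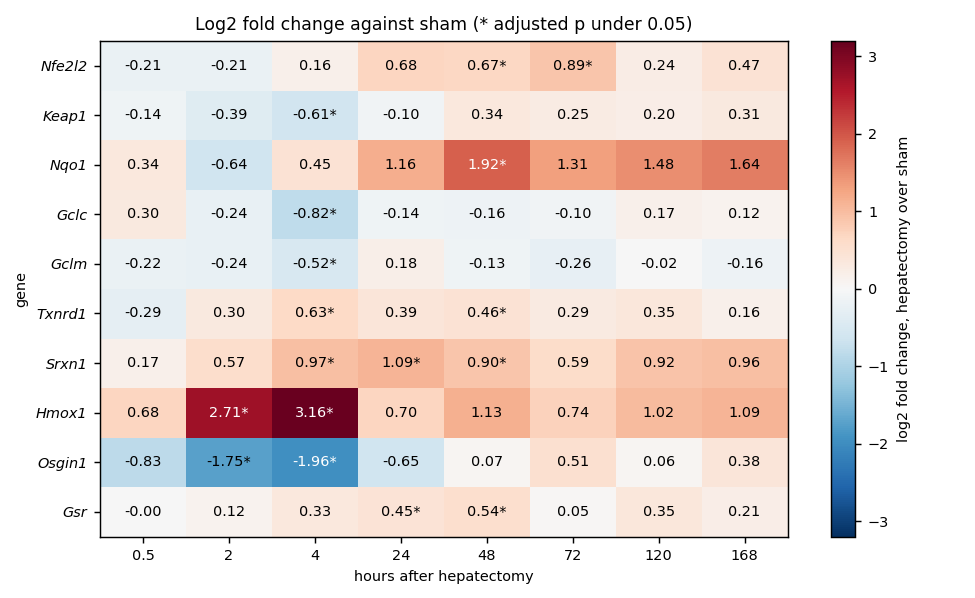
Log2 fold change of each of the 10 genes (rows) at each time after hepatectomy against sham (columns, hours, not to scale); red is higher and blue lower than sham, numbers are log2 fold changes and an asterisk marks an adjusted p under 0.05. Calls at 2 and 4 h lie in both directions, whereas those from 24 to 72 h are all higher.

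Counted over the 10 members, 7 were called at 4 h and 5 at 48 h, against 5 at 4 h and 7 at 48 h with scaling by library totals alone. At 4 h, 3 members were higher (Hmox1, Srxn1, Txnrd1) and 4 lower (Osgin1, Gclc, Keap1, Gclm), beside 31.6% of all 8026 genes called there, 15.3% higher and 16.3% lower. At 2 h, 1 was higher (Hmox1) and 1 lower (Osgin1), beside 7.75% of all genes called. At 48 h, 5 were higher (Nqo1, Gsr, Txnrd1, Srxn1, Nfe2l2) and none lower, beside 31.1% of all genes called and 14.2% higher. At 24 h, 2 were higher (Srxn1, Gsr) and none lower, beside 11.7% called and 5.05% higher. At 72 h, 1 was higher (Nfe2l2), beside 9.61% called. No member passed at 0.5 h (0.162% of all genes), 120 h (0.573%) or 168 h (3.85%) in edgeR's test, and the members with an unadjusted p under 0.05 there numbered 0, 5 and 4. DESeq2 called 0, 1 and 2 members at these times. The test of any difference among the 9 groups called 9 of 10 members, all but Srxn1, beside 58.3% of all genes.

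The median log2 change of the 10 members was -0.07 at 0.5 h, then -0.23 at 2 h and 0.24 at 4 h. From 24 h on it was 0.42, and 0.50 at 48 h, with 0.40 at 72 h, 0.30 at 120 h and 0.35 at 168 h. The median of all tested genes stayed between -0.05 and 0.02 at these times, near 0, where TMM scaling tends to hold it. It is therefore no separate check on the medians of the members. With scaling by library totals alone the median of all genes moved to -0.20 at 2 h and -0.35 at 4 h, but to 0.12 at 24 h and 0.14 at 48 h, and the members called at 4 h were then 1 higher (Hmox1) and 4 lower. Both pools of 8 members were above both sham pools at 48 h, beside 33.8% of all genes. The same held for 7 members at 72 h (26.7%) and at 168 h (31.1%), for 6 at 24 h (24.5%) and 120 h (24.5%), for 4 at 4 h (34.8%) and for 3 at 2 h (23.7%). The members below both sham pools numbered 5 at 2 h (25.4% of all genes) 4 at 4 h (33.6%), 2 at 24 h (27.6%), 1 at 48 h (40.4%), 1 at 72 h (33.2%), none at 120 h (29.2%) and, at 168 h, 1 (33.1%). In the 16 complete libraries, which hold 1 sham pool, no Nfe2l2, Srxn1 or Gsr call was kept, nor were those of Keap1, Gclm and Txnrd1 at 4 h and of Txnrd1 at 48 h (adjusted p = 0.052 to 0.341).

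**Figure D3:**
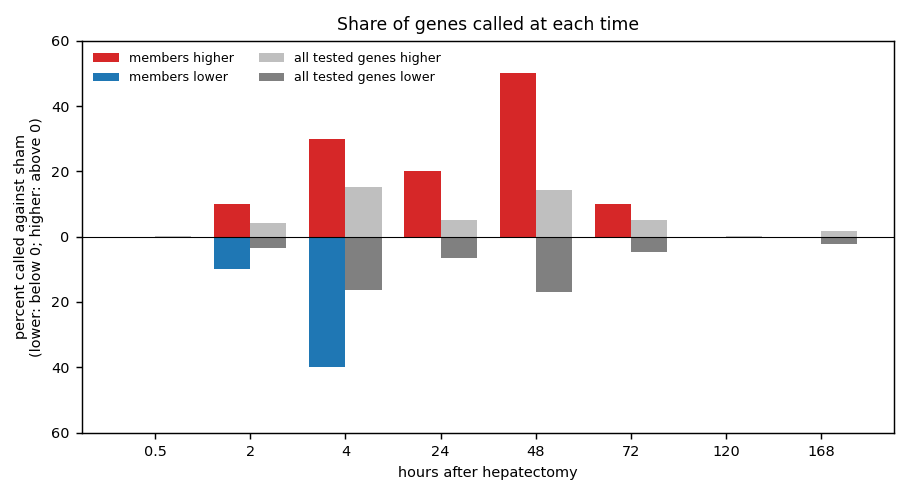
Share of the 10 members (red and blue) and of all 8026 tested genes (grey) called higher (above 0) or lower (below 0) than sham at each time (bars, percent). At 48 h, 5 of 10 members and 14.2% of all genes were higher; at 4 h members were called in both directions.

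Set directly against 4 h, the 24 h livers had 4 members higher (Osgin1, Gclm, Gclc, Keap1) and 1 lower (Hmox1), beside 30.2% of all genes called, 14.5% higher and 15.7% lower. This comparison and that of 4 h with sham share the 4 h pools. Txnrd1 and Srxn1, called higher at 4 h, had log2 changes at 24 h over 4 h of -0.24 ± 0.13 (adjusted p = 0.183) and 0.12 ± 0.28 (adjusted p = 0.766), which did not pass.

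The order of levels per gene length also changed. On the RPKM scale Gclc (122 ± 19.5, SD, n = 2) and Osgin1 (117 ± 5.80) led in sham livers, did not differ beyond their spread, and were followed by Gclm (79.3 ± 2.55). Txnrd1 (32.0 ± 2.68) and Gsr (30.3 ± 4.83) came next and did not differ beyond their spread, ahead of Nfe2l2 (23.0 ± 3.94). Hmox1 (16.6 ± 4.41), Srxn1 (13.0 ± 1.41) and Keap1 (10.6 ± 0.375) lay below, and Nqo1 (3.45 ± 2.18) was last. At 4 h Hmox1 was first at 114 ± 52.2 RPKM, ahead of Gclc at 53.2 ± 4.02 and Gclm at 42.9 ± 6.86, and Osgin1 at 23.0 ± 14.99 lay below Txnrd1 at 38.3 ± 0.368. At 48 h Osgin1 (139 ± 2.76) and Gclc (123 ± 10.8) led again, and Nqo1 (14.99 ± 1.80) was level with Keap1 (15.2 ± 0.813). RPKM values are scaled by library totals alone.

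Among the 10 other genes of the list of NRF2 regulators and partners, 2 small MAF genes, Mafk and Maff, rose at 2 h, while Mafg, the other small MAF gene of the list, passed at no time. Mafk, whose product pairs with NRF2, had 24.7 and 28.3 CPM at 2 h, against 9.86 and 11.97 CPM in sham livers, a log2 change of 1.28 ± 0.20 (adjusted p = 0.00192). Maff, another small MAF gene, had 21.1 and 16.8 CPM at 2 h and 16.6 and 7.96 CPM at 4 h, against 2.25 CPM in sham replicate 1 and an unlisted value, at most 6.55 CPM, in sham replicate 2. It was therefore tested in the 16 complete libraries, with 1 sham pool, where it changed by 3.07 ± 0.57 at 2 h (adjusted p = 0.0113), beside 2.65% of 12199 genes called there. Bach1, the repressor, had 52.6 and 59.3 CPM at 4 h and 17.8 and 17.1 CPM at 48 h, against 36.2 and 32.0 CPM in sham livers. It was thus higher at 4 h (0.71 ± 0.17, adjusted p = 0.00619) and lower at 48 h (-0.97 ± 0.17, adjusted p = 0.0018). The 4 h call of Bach1 was lost without sham replicate 2 (adjusted p = 0.0614) and with library totals alone (0.35, adjusted p = 0.165) and in the 16 complete libraries (0.0706), and the other 3 changes held under all alternatives and left-out libraries that could be run for them. Of the 9 regulators in the 17-library test, 2 were higher (Mafk, Bach1) and 1 lower (Btrc) at 4 h, 1 was higher at 2 h (Mafk) and 1 lower at 48 h (Bach1). The shares of all 8026 genes called were 31.6% at 4 h, 7.75% at 2 h and 31.1% at 48 h. The 4 h call of Mafk was lost with library totals alone (0.55, adjusted p = 0.0539), without sham replicate 1 (0.0539) and without 4 h replicate 1 (0.061). In the 16 complete libraries Maff had a log2 change of 2.44 at 4 h, and of 1.82 without 4 h replicate 1. At 24 h over 4 h its change was -1.98, and -1.35 without that pool. The exons of Mafk overlap Tmem184a on the other strand.

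**Figure D4:**
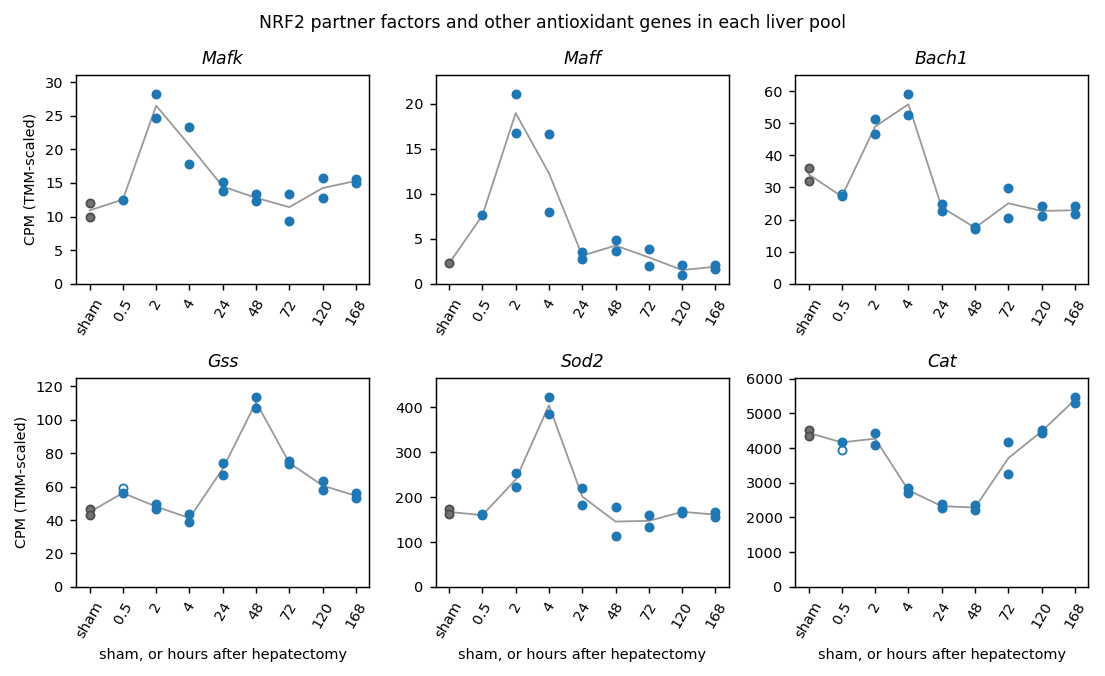
Level of 6 other genes of the pathway lists (CPM after TMM scaling, linear axis from 0) in every liver pool, by group (sham, then hours after hepatectomy, not to scale); points are pools, lines join group means and open circles are the 0.5 h pool left out of the test. Mafk and Maff peak at 2 h and Sod2 at 4 h, Gss peaks at 48 h, and Cat is lowest at 24 and 48 h.

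In the list of 12 other genes of glutathione synthesis and use, of which 9 were tested, calls fell in both directions. Gss, glutathione synthetase, which completes the tripeptide after glutamate-cysteine ligase, had 107 and 114 CPM at 48 h, against 46.3 and 43.1 CPM in sham livers, a change of 1.31 ± 0.11 (adjusted p = 3.68e-05), and was still higher at 72 h (0.73 ± 0.11, adjusted p = 0.00204). At 48 h Gclc and Gclm had changes of -0.16 ± 0.16 and -0.13 ± 0.13 and were not called. Gstp1, a glutathione S-transferase, had 329 and 360 CPM at 24 h, against 853 and 744 CPM in sham livers (-1.21 ± 0.16, adjusted p = 0.000773). Glo1, glyoxalase I, which uses glutathione to clear methylglyoxal, fell to 209 and 232 CPM at 48 h, against 432 and 413 CPM in sham livers (-0.94 ± 0.16, adjusted p = 0.00114). Over the 9 tested genes the calls at 4 h were 1 higher (Gpx3) and 2 lower (Hagh, Gstp1), beside 31.6% of all 8026 genes called. At 24 h they were 3 higher (Gss, Gpx3, Glrx) and 2 lower (Glo1, Gstp1), beside 11.7% of all genes. At 48 h they were 1 higher (Gss) and 3 lower (Glo1, Mgst1, Gstp1), beside 31.1%. At 72 h they were 1 higher (Gss) and 2 lower (Glo1, Gstp1), beside 9.61%. Of these, the Gss call at 24 h was lost in the 16 complete libraries (adjusted p = 0.0566). The Glo1 call at 24 h was lost without either sham pool or 24 h replicate 2 (adjusted p = 0.0554 to 0.0813), and that at 72 h without sham replicate 1 (0.0734) or 72 h replicate 2 (0.121). The Gstp1 call at 48 h was lost without sham replicate 1 (adjusted p = 0.136) or 48 h replicate 2 (0.162), and that at 72 h in 10 of the 17 fits that left out 1 library, with adjusted p up to 0.368 without 72 h replicate 2. Gss and Glo1 overlap genes on the other strand, and Gstp1 has a near-identical paralog with which reads may be shared.

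In the list of 10 thioredoxin and peroxiredoxin genes, Txnip, which binds and inhibits thioredoxin, had 23.9 and 27.2 CPM at 24 h, against 46.2 and 56.3 CPM in sham livers (-1.004 ± 0.18, adjusted p = 0.00452). Prdx6, a peroxiredoxin, had 311 and 319 CPM at 4 h, against 489 and 477 CPM in sham livers (-0.62 ± 0.12, adjusted p = 0.00193). Prdx4, the peroxiredoxin of the endoplasmic reticulum, was lower at 24 h (-0.69 ± 0.13, adjusted p = 0.00579), a call lost without sham replicate 1 (adjusted p = 0.0646) or 24 h replicate 2 (0.0527). The list had 1 gene higher (Prdx1) and 1 lower (Prdx6) at 4 h, beside 31.6% of all 8026 genes called. At 24 h it had 1 higher (Txn2) and 3 lower (Txnip, Prdx4, Txnrd2), beside 11.7% of all genes. It had 2 lower (Txnip, Txn1) at 48 h, beside 31.1%, and 1 lower (Txnip) at 72 h, beside 9.61%. In the 16 complete libraries the Txnip calls at 24, 48 and 72 h were all lost (adjusted p = 0.0558, 0.0506 and 0.116). The 48 h call was also lost without 48 h replicate 2 (adjusted p = 0.0512), and the 72 h call without sham replicate 2 (0.133) or either 72 h pool (0.0814 and 0.101). Txnip overlaps the antisense gene Gm15441.

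Thioredoxin and glutathione reductases consume NADPH. The list for its supply has 6 genes, among them Taldo1 and Tkt, which do not make NADPH themselves. None of the 6 was called at 4 h, beside 31.6% of all 8026 genes. At 48 h 1 was higher and 2 were lower, beside 31.1% of all genes called. Me1, malic enzyme, had 122 and 108 CPM at 48 h, against 223 and 190 CPM in sham livers (-0.85 ± 0.175, adjusted p = 0.00405), and Idh1, the cytosolic isocitrate dehydrogenase, fell as well (-0.83 ± 0.17, adjusted p = 0.00409). Pgd, of the pentose phosphate pathway, had 79.7 and 94.4 CPM at 48 h, against 43.4 and 53.2 CPM in sham livers (0.85 ± 0.24, adjusted p = 0.0186). That call was lost without sham replicate 1 (adjusted p = 0.14) or 48 h replicate 2 (0.114). At 72 h 2 of the 6, Pgd and G6pdx, were higher and none was lower, beside 9.61% of all genes called. The 72 h call of Pgd was lost without sham replicate 1 (adjusted p = 0.147), sham replicate 2 (0.0624) or 72 h replicate 2 (0.156).

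Among 11 genes that clear quinones, carbonyls and epoxides, of which 9 were in the 17-library test, 1 was higher (Ugdh) and 3 were lower (Aldh3a2, Nqo2, Ephx1) at 4 h. At that time 31.6% of all 8026 genes were called. Aldh3a2, a fatty aldehyde dehydrogenase, had 40.5 and 97.2 CPM at 4 h, against 182 and 177 CPM in sham livers (-1.39 ± 0.31, adjusted p = 0.00437). Nqo2, a relative of Nqo1, had 56.5 and 86.1 CPM at 4 h, against 116 and 124 CPM in sham livers (-0.75 ± 0.18, adjusted p = 0.00747), a call lost without 4 h replicate 1 (adjusted p = 0.0655). Nqo1 itself had a change of 0.45 ± 0.47 at 4 h and was not called. Cbr1, a carbonyl reductase, was higher at 24 h (0.81 ± 0.24, adjusted p = 0.0408), which was lost without either sham pool (adjusted p = 0.297 and 0.0577), without 24 h replicate 2 (0.268) and without any of 6 pools at 2, 48 and 72 h (0.0506 to 0.0566). Nqo2 overlaps Serpinb6a on the other strand.

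In the list for haem breakdown and ferritin, with 5 matched genes beside Hmox1, Slc40a1, the iron exporter ferroportin, had 48.9 and 55.0 CPM at 4 h, against 111 and 124 CPM in sham livers (-1.18 ± 0.18, adjusted p = 0.000298). It was the only gene of the 5 called at 2, 4 or 48 h, each time lower, and the pools at 24 h, 119 and 112 CPM, were within the sham range. At 2, 4 and 48 h, 7.75%, 31.6% and 31.1% of all 8026 genes were called. The 2 h call of Slc40a1 was lost without either sham pool or either 2 h pool (adjusted p = 0.0753 to 0.151). Of the 3 enzymes that remove superoxide and peroxide, Sod2, the mitochondrial superoxide dismutase, had 424 and 386 CPM at 4 h, against 173 and 161 CPM in sham livers (1.28 ± 0.18, adjusted p = 0.000228). Cat, catalase, had 2708 and 2863 CPM at 4 h and 2352 and 2219 CPM at 48 h, against 4527 and 4350 CPM in sham livers, changes of -0.67 ± 0.14 (adjusted p = 0.00314) and -0.96 ± 0.14 (adjusted p = 0.000613). The changes of Sod2 at 4 h and of Cat at 4, 24 and 48 h held under all alternatives and left-out libraries, and Sod1 was not called at any time.

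Across the 17 libraries the members did not follow 1 course. Pearson's r of log2 CPM, given as a description over libraries that share groups and scaling, was 0.87 between Keap1 and Osgin1, 0.70 between Txnrd1 and Srxn1, 0.69 between Txnrd1 and Gsr, 0.68 between Srxn1 and Gsr, and 0.50 between Gclc and Gclm. Hmox1 ran against Gclm (r = -0.70), Osgin1 (-0.65), Keap1 (-0.64) and Gclc (-0.61). Nfe2l2 had r of 0.64 with Nqo1 and 0.60 with Osgin1, and -0.23 with Hmox1. Of 7796 genes compared, the genes most like Hmox1 in course were Smad1 (r = 0.95) and Tle3 (0.94), those most like Nfe2l2 were Exoc1 (0.91) and Ptpn21 (0.89), and those most like Keap1 were Opa3 (0.95) and Shmt2 (0.93). Gclc was closest to Rabggta (0.94) and Tmem143 (0.93), Gclm to Ugt2b35 (0.92) and Nr1i3 (0.89), and Osgin1 to Sox13 (0.91). Txnrd1 was closest to Pafah1b2 (0.87) and Slc16a1 (0.85), Srxn1 to Cdc42 (0.87) and Iqgap1 (0.81), Gsr to Anxa7 (0.87) and Xdh (0.82), and Nqo1 to Prcp (0.88) and Pfn1 (0.87).

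Some markers of other cells were called at times with member calls. Among all 8026 genes, 31.6% were called for 4 h and 31.1% for 48 h. That share was 11.7% for 24 h and 9.61% for 72 h. The marker calls below stand beside these shares. At 4 h the 6 sinusoidal endothelial markers summed to 320 to 332 CPM, against 229 to 246 CPM in sham livers (Lyve1 and Pecam1 higher, Kdr lower). Lyve1 alone had 116 and 115 CPM at 4 h, against 25.2 and 21.4 CPM in sham livers. Stab2, Clec4g and Tek were not called. The 5 stellate cell markers summed to 259 CPM in both 4 h pools, against 189 to 222 CPM in sham livers. Only Dcn was called among them, higher at 205 and 192 CPM, against 141 and 125 CPM in sham livers. Of the 5 cholangiocyte markers, the 2 in the 17-library test, Sox9 and Spp1, were both higher at 4 h. They summed to 94.9 to 153 CPM, against 37.3 to 42.1 CPM in sham livers. The other 3, Krt19, Krt7 and Epcam, had log2 changes of 1.40, 0.63 and 0.51 at 4 h in the 16 complete libraries, with 1 sham pool. These rest on 1 to 13 reads in a 4 h pool. The 2 erythroid genes in the test summed to 113 to 134 CPM at 4 h, against 144 to 192 CPM in sham livers, with Hba-a1 higher. At 48 h, when 5 members were higher, the hepatocyte markers summed to 110100 to 113600 CPM, against 116700 to 123400 CPM in sham livers (Cyp2e1 lower), and at 24 h to 71200 to 83780 CPM (Alb, Ttr and Apoa1 lower). The stellate cell markers summed to 164 to 167 CPM at 48 h, with Col1a1 higher and Lrat and Dcn lower, and to 208 to 329 CPM at 72 h, with Col1a1 and Pdgfrb higher, against 189 to 222 CPM in sham livers. Col1a1 alone had 37.9 and 120 CPM at 72 h, against 7.74 and 7.94 CPM in sham livers. The Kupffer cell and macrophage markers summed to 726 to 827 CPM at 48 h, with Marco higher and Clec4f and Vsig4 lower, and to 637 to 699.7 CPM at 72 h, with Marco higher and Vsig4 lower, against 705 to 716 CPM in sham livers. Clec4g was the endothelial marker called at 48 and 72 h, lower at both. None of the hepatocyte, endothelial or stellate markers was at 0 in a library, and 3 of the 5 cholangiocyte markers were unlisted for sham replicate 2. The part of these shifts in the member changes was not tested.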

How the data were processed

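RNA of 3 mouse livers was pooled for each of 18 libraries, 2 for each of 9 groups. The deposited tables give, per the file headers, read counts of uniquely mapped reads per gene and the library total, and the authors' RPKM, which is the count divided by gene length and total. Per the submitters' processing notes the genome build is mm10. Aligner, counting tool and strand: not given in the sources used here. The 10 genes were taken by symbol and placed with GENCODE and RefSeq annotation of GRCm38; promoter sequences are from RefSeq (GRCm38.p6).

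The test was edgeR's (4.0.16, under R 4.3.3) quasi-likelihood F test with TMM scaling, fitted to all groups at once, with Benjamini-Hochberg adjustment over all genes and a threshold of 0.05. The fit had 17 libraries, 8026 genes, 8 residual degrees of freedom and a biological coefficient of variation of 0.146. Genes unlisted for sham replicate 2 were tested in the 16 complete libraries (12199 genes). A gene needed the CPM of 10 reads in at least 2 libraries and 15 reads in all. The SE is the log2 change divided by the root of F. Correlations used log2 CPM with a prior count of 2. The members and gene lists were chosen with earlier results of these data known. All members are named; from a pathway list at most 3 genes called against sham, smallest p first, and for each member the 2 genes with the highest r, of which 1 is not reported here. Other pathway and marker genes behind counts of 5 or fewer were named after their values were seen. Counts of 8026 genes were also simulated, with 200 changed. At 4 h against sham, 77% of the 2-fold changes and 100% of the 4-fold ones were called, with 8 false calls of 185. At 48 h these were 82% and 100%, with 6 of 188. In the livers 31.6% of genes were called at 4 h. The SE of members there ran from 0.13 (Gsr) to 0.47 (Nqo1). Recovery at the spread of single members was not tested.

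Alternatives were DESeq2 1.42.0, RLE factors, library totals alone, no filter, a block for the replicate number, 16 or 18 libraries, only the 2 groups compared, and each library left out in turn. For pathway genes they were added after the data had been seen. At 7.78 to 9.16 M reads a library, levels of members rest on 20 to 4687 reads. Pools of a group differed by more than counting noise (chi-square per degree of freedom 15.2 to 42.6).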

Additional observations from a re-analysis of the deposited data

How the results depend on the processing

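No member call changed direction under any alternative or left-out library. Of 22 calls over the 90 pairs of member and comparison, 9 held under all alternatives, 8 in all 17 fits that left out 1 library, and 6 in both. The counts of members called moved by over 1.5 times as follows. At 0.5 h the count was 0, and 1 with only the 2 groups compared. At 24 h it was 2, and 5 with DESeq2, 4 with 18 libraries, 4 with library totals alone, 1 with 16 libraries and 1 with 2 groups. At 4 h it was 7, and 3 with 16 libraries; at 48 h it was 5, and 1 with 16 libraries. At 72 h it was 1, and 2 with DESeq2, 2 with the replicate block and 3 with 2 groups. At 120 h it was 0, and 1 with DESeq2 and 1 with 2 groups. At 168 h it was 0, and 2 with DESeq2, 1 with RLE factors, 1 with the replicate block and 5 with 2 groups. For 24 h against 4 h it was 5, and 8 with library totals alone and 3 with 2 groups. Leaving out 1 library gave 0 to 0 members at 0.5 h, 1 to 2 at 2 h, 5 to 7 at 4 h, 0 to 3 at 24 h, 1 to 6 at 48 h, 0 to 1 at 72 h, 0 to 0 at 120 h, 0 to 2 at 168 h, 3 to 5 for 24 h against 4 h, and 8 to 10 for any difference among the 9 groups. The causes were not tested, except that 16 libraries and left-out libraries have fewer samples.

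Over all genes, the calls were 13 at 0.5 h (23 with DESeq2, 6 with 16 libraries, 210 with 2 groups), 622 at 2 h (323 with 16 libraries), 937 at 24 h (357 with 16 libraries, 401 with 2 groups), 771 at 72 h (466 with 16 libraries), 46 at 120 h (164 with DESeq2, 13 with 16 libraries, 20 with totals alone, 73 with the block, 144 with 2 groups), 309 at 168 h (795, 10, 143, 488 and 1584 in the same order) and 2422 for 24 h against 4 h (4294 with totals alone, 1041 with 2 groups). With totals alone the calls were 509 higher and 3099 lower at 4 h (1228 and 1309 with TMM), 230 and 686 at 2 h (340 and 282), 1935 and 756 at 48 h (1136 and 1361), and 3911 and 383 for 24 h against 4 h (1161 and 1261). Leaving out 1 library gave 4 to 15 calls at 0.5 h, 249 to 716 at 2 h, 1562 to 2716 at 4 h, 269 to 981 at 24 h, 1050 to 2771 at 48 h, 131 to 957 at 72 h, 3 to 109 at 120 h, 4 to 982 at 168 h, and 1619 to 2488 for 24 h against 4 h. The lowest counts came without sham replicate 1 at 2, 4, 24 and 48 h, without replicate 2 of the time itself at 72, 120 and 168 h, and without 4 h replicate 2 for 24 h against 4 h. In the 17 libraries all 8026 genes passed the filter, which in the 16 complete libraries kept 12199 of 17180. Same-numbered pools deviated from their group means alike in some pairs and in opposite ways in others (28 pairs, r from -0.50 to 0.46, median 0.04, 11 over 0.1). The replicate block thus rests on a number alone, and differences shared by pools of unlike number were not tested. Of 50 calls of 18 named pathway genes, none changed direction, and 25 held under all alternatives and left-out libraries. A member with few reads, above all Nqo1, is limited by depth.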
